A study of Homo sapiens with 8 samples.

Results

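The data described here are the response of Panc.10.05, an established human pancreatic ductal adenocarcinoma (PDA) cell line, to a small interfering RNA (siRNA) against PDX1. Members were the rows of the RNA-seq table of this line with at least 1 FPKM (read fragments divided by transcript length in kilobases and by library size) in either of its 2 libraries, and 11624 of 28520 rows met that rule. The study transfected 4 PDA lines, Panc.10.05, Panc.8, HPAF-II and Panc.05.04, with control siRNA or with PDX1 siRNA and collected the RNA 3 days later, which gave 8 libraries with 1 library per line and treatment. All groups were siRNA-transfected tumour cell lines, and no untransfected cells were used here. With 1 library per treatment, each Panc.10.05 value stands without an error and no test was made within the line. Differences are therefore described by size, as the log2 ratio of PDX1 siRNA over control siRNA on log2(FPKM + 1), a scale that understates differences of weakly expressed genes, and 2-fold means a log2 ratio of at least 1 in either direction. Where a pair of FPKM values follows a gene, the control siRNA value stands first and the PDX1 siRNA value second. The tables of the other 3 lines served as a reference, and the spread among their ratios supplied the only test.

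PDX1 is a homeobox transcription factor that the embryonic pancreas needs in order to form and that is later kept mainly in the insulin-producing beta cell. In pancreatic tumours its level differs between cells, and it has been studied both as a factor that tumour cells depend on and as one that holds epithelial identity in place. An siRNA guides the cell's own Argonaute proteins to a matching messenger RNA, and siRNA duplexes can also act on other transcripts and on sensors of foreign RNA.

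PDX1 itself was near the floor of detection in this line. It stood at 0.188 and 0.0998 FPKM in Panc.10.05, 1.88-fold lower with PDX1 siRNA, and neither library reached the 1 FPKM that membership required. In HPAF-II it stood at 9.61 and 5.37 FPKM, in Panc.05.04 at 1.41 and 0.416 FPKM, and in Panc.8 at 0.914 and 0.372 FPKM. At this level the fold in Panc.10.05 is poorly determined, so the knockdown could hardly be checked in this line, and whether the differences described here follow from PDX1 was not tested. The value was lower with PDX1 siRNA in each of the 4 lines, and Panc.10.05 had the lowest control level, with the limit that the 4 tables may have been scaled separately. The authors' deposited table marks the PDX1 comparison in Panc.10.05 as not tested.

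Across the members, 359 rows were at least 2-fold higher with PDX1 siRNA, which is 3.09% of all 11624, and 199 rows were at least 2-fold lower, which is 1.71%. Among the 10679 rows of a single protein-coding gene the counts were 321 higher and 165 lower. By any amount, 48.7% of the members were higher and 51.3% lower, and the median log2 ratio over all members was -0.01, so the table as a whole was centred. The centre differed by level, however. In protein-coding rows the median was 0.35 over the 181 rows with a mean under 1 FPKM, which reached 1 FPKM in 1 library only. It was 0.10 at a mean of 1 to 3 FPKM, -0.09 at 30 to 100 FPKM and -0.11 at 100 to 300 FPKM. From 300 FPKM it was 0.10. The SD of the log2 ratios was 0.515, against 0.421 in Panc.8, 0.344 in Panc.05.04 and 0.260 in HPAF-II. By the same rule Panc.8 had 197 rows higher (1.69%) and 23 lower (0.197%), Panc.05.04 had 46 (0.403%) and 73 (0.639%), and HPAF-II had 22 (0.192%) and 19 (0.166%), so Panc.10.05 held the most 2-fold rows of the 4 lines in both directions. The rows nearest the limits were at log2 ratios of 1.001 and 0.9996 on the higher side and of -1.0003 and -0.995 on the lower side. Among these protein-coding rows, 1291 had a mean of 1 to 3 FPKM, of which 56 were at least 2-fold higher and 9 lower, and 140 had a mean of 300 FPKM or more, of which 3 were higher and 8 lower. In the authors' deposited table, 13 rows were higher and 1 was lower at a q-value under 0.05.

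**Figure D1:**
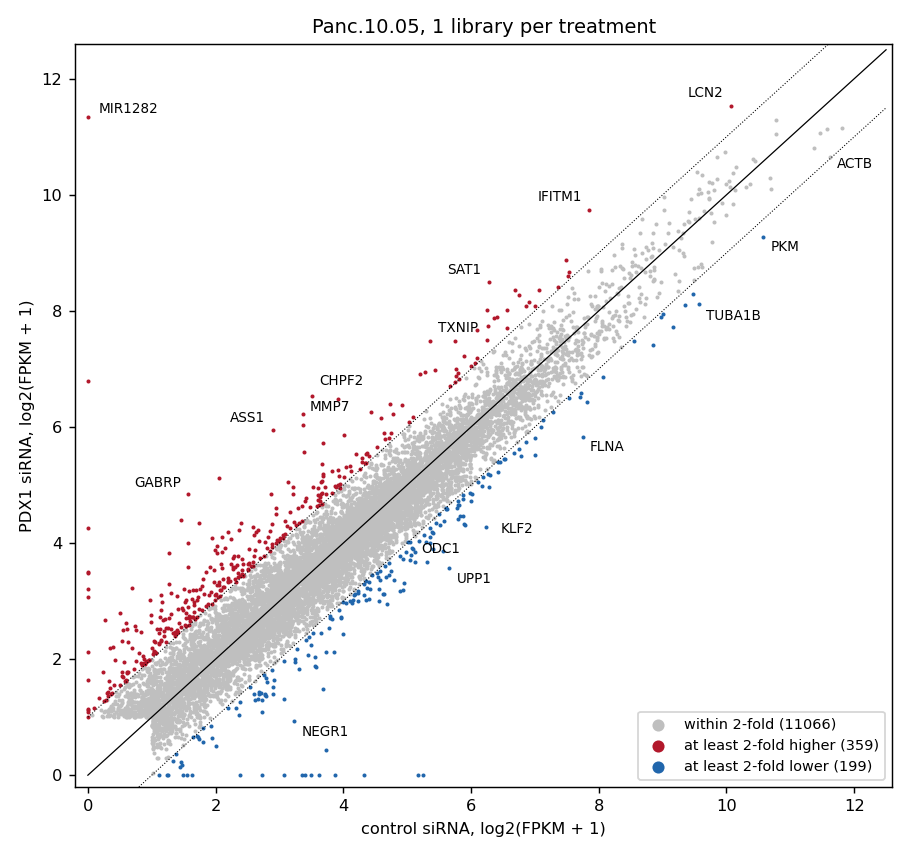
Each point is 1 of the 11624 members in Panc.10.05, with its log2(FPKM + 1) in the control siRNA library on the horizontal axis and in the PDX1 siRNA library on the vertical axis. The solid line marks equal values and the dotted lines a log2 ratio of 1 in either direction, beyond which 359 rows lie above and 199 below.

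Identity of the cells was checked against markers. Of 12 ductal carcinoma markers, 10 reached 1 FPKM, and 5 of those were higher and 5 lower with PDX1 siRNA. KRT19, the duct keratin, stood at 1758 and 2107 FPKM, KRT8, its simple-epithelium relative, at 1641 and 1258 FPKM, and EPCAM, an epithelial adhesion protein, at 328 and 542 FPKM. CFTR, the chloride channel of normal ducts, was at 0 and 0.00781 FPKM, and TSPAN8 was listed at 0 in both libraries. Among the acinar markers only BHLHA15 was above 0 FPKM, at 2.60 and 2.93, and the digestive enzymes in the list were all listed at 0. T cell and B cell markers (CD3E, CD3D, MS4A1) were listed at 0 in both libraries, and no endothelial marker passed 0.523 FPKM. COL1A2, DCN and LUM of fibroblasts were also listed at 0, but COL1A1 stood at 5.39 and 5.06 FPKM and ACTA2 at 1.03 and 2.05 FPKM. Of the endocrine markers, PAX6, at 1.58 and 2.06 FPKM, and ISL1, at 1.17 and 1.17 FPKM, passed 1 FPKM. CD14, a lipopolysaccharide co-receptor best known from monocytes, was the marker of another cell type with the largest ratio, at 3.56 and 17.3 FPKM. In the same libraries the macrophage markers CSF1R and CD163 stayed below 1 FPKM, and the 11 immune markers summed to 58.1 and 98.6 FPKM, mostly from CD68, a lysosomal protein. In bulk RNA, fewer cells of a type and less RNA per cell cannot be told apart.

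Among the genes with the highest ratios, GABRP, a GABA receptor subunit found in epithelial tumours, was at 1.97 and 27.8 FPKM, 14.1-fold higher. MMP7, a matrix metalloproteinase of ductal epithelium, was at 9.30 and 73.4 FPKM, 7.90-fold higher, and SAA1, an acute phase protein, at 14.1 and 88.3 FPKM, 6.28-fold higher. DEFB1, an epithelial antimicrobial peptide, was at 0.623 and 8.38 FPKM. PROM1 (CD133), a surface protein of progenitor-like and ductal cells, was at 11.9 and 52.1 FPKM, and PIGR, which carries polymeric immunoglobulin across epithelia, at 0.972 and 7.12 FPKM. ASS1, which makes argininosuccinate on the way to arginine, was at 6.43 and 61.0 FPKM, 9.49-fold higher. CHPF2, a chondroitin sulfate synthase component, was at 10.4 and 92.1 FPKM, 8.86-fold higher. TXNIP, an inhibitor of thioredoxin and of glucose uptake, was at 40.1 and 178 FPKM, 4.44-fold higher. The transcription factor SOX2 was at 1.96 and 15.0 FPKM. Of these, GABRP, MMP7, PROM1, PIGR, ASS1 and TXNIP were among the rows with a q-value of 0.0441, the smallest given, in the authors' deposited table, as were TRIM22, GBP2, IFITM1, SAT1, STEAP4 and HP.

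Among the genes with the lowest ratios, NEGR1, a cell adhesion protein of neurons, was at 8.41 and 0.899 FPKM, 9.36-fold lower, and was the only lower row past the q threshold in the authors' deposited table. GRPR, the receptor for gastrin-releasing peptide, was at 11.8 and 1.80 FPKM, 6.57-fold lower. UPP1, which releases ribose from uridine, was at 49.6 and 10.8 FPKM, 4.57-fold lower. In the other 3 lines the log2 ratios of UPP1 lay between -0.04 and 0.35. KLF2, a Krüppel-like transcription factor, was at 74.4 and 18.3 FPKM, and FLNA, the actin crosslinker filamin A, at 214 and 55.8 FPKM. SERPINB5 (maspin) was at 7.39 and 1.48 FPKM, and MYBL1, a MYB family factor, at 29.4 and 8.13 FPKM. ODC1, the rate-limiting enzyme of polyamine synthesis, was at 58.5 and 19.1 FPKM. JUN, an AP-1 subunit, was at 24 and 7.71 FPKM.

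**Figure D2:**
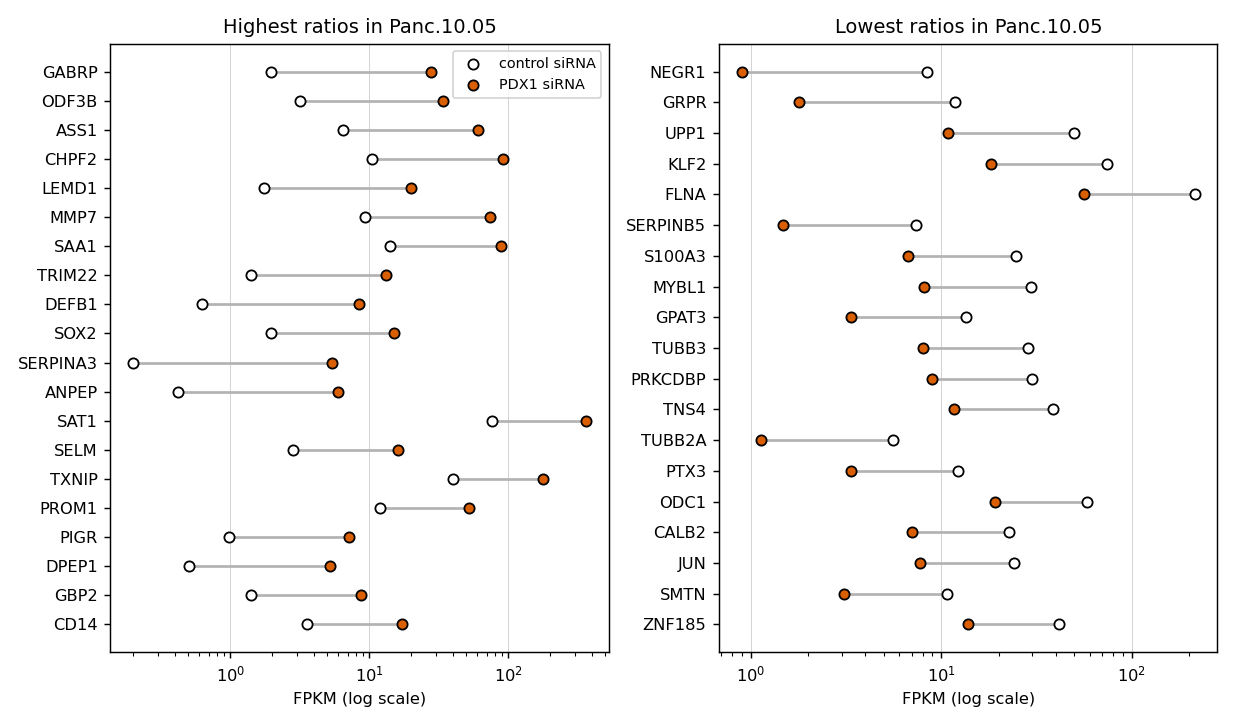
FPKM on a log axis in the control siRNA library (open circles) and the PDX1 siRNA library (filled circles) of Panc.10.05, for the 20 protein-coding genes with the highest and 19 of the 20 with the lowest log2 ratios among genes that reached 5 FPKM in 1 of the libraries and were above 0 in both. GABRP moves from 1.97 to 27.8 FPKM and NEGR1 from 8.41 to 0.899 FPKM.

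Counted in FPKM instead of ratios, the largest differences were in the most abundant transcripts. LCN2, the iron-sequestering lipocalin of inflamed epithelium, stood at 1074 and 2975 FPKM. ACTB, cytoplasmic actin, stood at 3143 and 1600 FPKM, GAPDH at 3604 and 2267 FPKM, and PKM, the last enzyme of glycolysis, at 1522 and 621 FPKM. Genes often used as internal references were thus among those that differed most in amount. Over the list of 25 reference genes, 19 were lower and 6 higher with PDX1 siRNA, with a median log2 ratio of -0.16, and EEF1A1 was at 276 and 351 FPKM while HPRT1 was at 50.2 and 25.2 FPKM. Small RNAs made up 24 of the 2-fold rows, and most of those were listed at 0 in 1 library, such as SNORD89 at 37.2 and 0 FPKM. The row named MIR1282 was listed at 0 in the control and at 2596 FPKM with PDX1 siRNA, and it overlaps the rows of other genes, SERF2 among them, so the value cannot be given to 1 transcript.

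Genes of DNA replication and mitosis were lower almost throughout. During the cell cycle, E2F factors switch on replication genes before S phase, and a later wave of genes for mitosis is read through promoters that carry a cell cycle homology region (CHR). Of 58 genes for G1/S and DNA replication, 57 were lower and 1 was higher, with a median log2 ratio of -0.70. Of these 58, 12 were at least 2-fold lower, beside 1.71% of all members. HELLS, a chromatin remodeller of replicating cells, was at 26.6 and 9.28 FPKM, and UHRF1, which recruits the maintenance DNA methyltransferase, was at 20.1 and 7.24 FPKM. MCM4, a subunit of the replicative helicase, was at 110 and 44.5 FPKM, and CCNE1, cyclin E1, at 5.09 and 1.62 FPKM. The exception was RPA1 of the single-strand binding complex, at 25.7 and 26.1 FPKM. Among 62 genes for G2/M and mitosis, 61 were lower and 1 was higher, but only 3 were at least 2-fold lower, and the median was -0.66. GTSE1, a microtubule-bound protein of G2 cells, was at 33.8 and 13.4 FPKM, MKI67, the proliferation antigen Ki-67, at 53.8 and 23.3 FPKM, and FOXM1, a factor that drives mitotic genes, at 104 and 52.3 FPKM. CDK1, the mitotic kinase, differed less, at 107 and 95.1 FPKM, and CKS1B, a partner of cyclin-dependent kinases, was the member that was higher, at 35.7 and 43.9 FPKM. The same lists had medians of -0.12 and -0.24 in Panc.8, -0.06 and -0.38 in HPAF-II, and 0.08 and 0.13 in Panc.05.04.

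Of 17 CDK inhibitor and RB family genes, 5 were higher and 12 lower, with a median of -0.24. CDKN1A (p21), an inhibitor of cyclin-dependent kinases, was at 8.63 and 3.49 FPKM, and CDKN2B (p15) was at 16.2 and 8.87 FPKM. CDKN1B (p27) was at 54.0 and 66.1 FPKM and RBL2 (p130), the RB family member of resting cells, at 18.7 and 27.5 FPKM. CCND1, cyclin D1, was at 136 and 63.0 FPKM. Among 24 genes that p53 activates, 13 were higher and 11 lower, with GDF15 at 11.6 and 32 FPKM and AEN at 17.1 and 8.25 FPKM.

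The promoters of GTSE1 and CDCA3, which were both at least 2-fold lower, are shown because they illustrate a sequence feature that most of the list shared. The windows run from 250 bases before to 50 after the start of transcription in RefSeq (GRCh38.p14), and the capitals mark TTTGAA, the CHR letters, on either strand. GTSE1 lies at chr22:46296620-46296919 on the plus strand and CDCA3, a cell division cycle gene that was at 40.1 and 18.1 FPKM, at chr12:6851237-6851536 on the minus strand.
GTSE1: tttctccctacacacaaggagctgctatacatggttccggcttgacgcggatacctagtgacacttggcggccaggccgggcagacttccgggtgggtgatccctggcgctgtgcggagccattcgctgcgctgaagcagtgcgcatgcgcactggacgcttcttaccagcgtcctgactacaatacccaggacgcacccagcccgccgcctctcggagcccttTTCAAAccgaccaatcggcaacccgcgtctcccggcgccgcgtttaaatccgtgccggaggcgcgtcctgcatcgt
CDCA3: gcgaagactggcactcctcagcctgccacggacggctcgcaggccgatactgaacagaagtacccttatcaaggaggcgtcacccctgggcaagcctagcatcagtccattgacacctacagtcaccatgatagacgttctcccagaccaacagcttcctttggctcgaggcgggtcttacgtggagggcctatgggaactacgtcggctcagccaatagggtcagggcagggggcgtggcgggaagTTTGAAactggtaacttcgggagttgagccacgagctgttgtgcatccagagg
The letters start at position -26 in GTSE1 and at position -3 in CDCA3, counted from the start of transcription. Of 5935 protein-coding members with exactly 1 RefSeq promoter entry, 8.98% held TTTGAA on either strand, and of the 44 G2/M genes with an entry 33 did, which is 75.0%. CCAAT was in 38.3% of all entries and in 79.5% of the G2/M entries, and the E2F letters GGCGGGAA were in 5.70% of all entries and in 9 of the 37 G1/S entries, which is 24.3%. Matches of different motifs could share bases. Within the G2/M list the median log2 ratio was -0.68 with the CHR letters and -0.63 without, so the letters did not separate its members by size. Over all 5935 genes, the median was -0.11 with the letters and -0.02 without.

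Genes of ribosome assembly and of nucleotide and polyamine supply were also lower, while MYC itself was not. Of 50 genes for ribosome biogenesis and other MYC targets, 47 were lower and 3 higher, with a median log2 ratio of -0.42. Only 2 of them were at least 2-fold lower, beside 1.71% of all members. SRM, spermidine synthase, was at 57.8 and 27.3 FPKM. CAD, which starts pyrimidine synthesis, was at 26.2 and 13.6 FPKM, NCL, nucleolin, at 357 and 223 FPKM, and NOP2, a ribosomal RNA methyltransferase, at 33.3 and 20.1 FPKM. MYC stood at 111 and 116 FPKM. The 3 higher members were MYC, GNL3, at 32.4 and 37.4 FPKM, and EXOSC5, at 23.2 and 27.7 FPKM. Of 11 factors that pair with or oppose MYC, a list put together after the values were seen, 7 were higher and 4 lower. Their median log2 ratio was 0.06. Among them the repressor MXD4 was at 9.73 and 19.6 FPKM, and MXI1 was at 14.7 and 23.5 FPKM.

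The promoters of SRM and NOP2 show the E-box letters CACGTG, which MYC with MAX and other basic helix-loop-helix factors can bind, in capitals. SRM lies at chr1:11059969-11060268 and NOP2 at chr12:6568242-6568541, both on the minus strand of GRCh38.p14 in RefSeq, with the letters at position -199 and at position 35.
SRM: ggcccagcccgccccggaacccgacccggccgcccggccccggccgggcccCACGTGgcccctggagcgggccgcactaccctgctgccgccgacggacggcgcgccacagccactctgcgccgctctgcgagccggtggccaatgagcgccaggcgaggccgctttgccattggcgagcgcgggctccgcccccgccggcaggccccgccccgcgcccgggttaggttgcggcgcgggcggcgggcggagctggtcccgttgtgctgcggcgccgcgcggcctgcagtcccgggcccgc
NOP2: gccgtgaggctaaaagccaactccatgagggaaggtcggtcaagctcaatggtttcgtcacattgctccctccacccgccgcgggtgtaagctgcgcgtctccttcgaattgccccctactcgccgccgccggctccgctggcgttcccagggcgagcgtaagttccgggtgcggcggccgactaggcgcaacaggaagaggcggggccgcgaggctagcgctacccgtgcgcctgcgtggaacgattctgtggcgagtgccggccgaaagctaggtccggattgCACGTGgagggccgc
CACGTG reads the same on both strands. It was in 10.7% of the 5935 entries and in 14 of the 32 entries of the list, which is 43.8%. The median log2 ratio within the list was -0.49 with the letters and -0.41 without, and over all entries -0.09 with and -0.02 without.

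Of 13 polyamine genes, a list put together after the values were seen, 5 were higher and 8 lower, with a median log2 ratio of -0.33. ODC1 was 3.06-fold lower, SRM was 2.12-fold lower, and SMS, spermine synthase, was at 87.3 and 55.0 FPKM. AMD1, which supplies the aminopropyl donor, was at 37.2 and 23.7 FPKM. SAT1, the acetyltransferase that starts polyamine breakdown and export, was at 76.8 and 363 FPKM, 4.72-fold higher. Its relative SAT2 was at 8.16 and 16.6 FPKM. These 4 enzymes of synthesis were lower and both acetyltransferases higher, but the breakdown enzymes SMOX, a spermine oxidase at 24.5 and 17.6 FPKM, and PAOX, an acetylpolyamine oxidase at 1.65 and 2.66 FPKM, differed in direction. The antizyme OAZ1 was at 454 and 492 FPKM and its relative OAZ2 at 62.6 and 54.5 FPKM.

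Ribosomal protein genes went the other way from ribosome assembly genes. Of 72 cytosolic ribosomal protein genes, 63 were higher and 9 lower with PDX1 siRNA, none by 2-fold, and the median log2 ratio was 0.28. RPL13A was at 110 and 211 FPKM, RPL31 at 410 and 770 FPKM, and RPS29 at 928 and 1601 FPKM. RPS2 and RPLP1 were among the lower members, at 646 and 495 FPKM and at 1099 and 915 FPKM. The medians of the same list were -0.37 in Panc.8, -0.15 in HPAF-II and -0.06 in Panc.05.04, so Panc.10.05 was the only line of the 4 with a median above 0. Translation factors were divided, with EIF4A2, an RNA helicase of initiation, at 107 and 307 FPKM and EIF4G1, the scaffold of the cap-binding complex, at 193 and 118 FPKM. Several long RNAs that host small nucleolar RNAs in their introns were also higher, 8 of 12 in a list put together after the values were seen, with GAS5 at 81.2 and 236 FPKM and ZFAS1 at 132 and 326 FPKM. Many ribosomal protein genes have near-identical pseudogenes, and counting between the copies is uncertain.

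Structural genes of the cell were lower with PDX1 siRNA. Of 11 tubulin genes, 9 were at least 2-fold lower, beside 1.71% of all members. Tubulins were the list with the lowest median, at -1.24. TUBA1B, the main alpha tubulin here, was at 761 and 278 FPKM, TUBB4B was at 711 and 313 FPKM, TUBB6 at 41.4 and 17.0 FPKM, and TUBB3, the beta tubulin of neurons and many carcinomas, at 28.6 and 8.05 FPKM. The 2 members that were not lower, TUBD1 at 5.16 and 5.37 FPKM and TUBE1 at 3.94 and 4.08 FPKM, encode the delta and epsilon tubulins of centrioles. Of the 45 actin and serum response factor genes, 31 were lower and 14 higher, with a median of -0.33. FSCN1, which bundles actin in protrusions, was at 128 and 55.0 FPKM and MYH9, non-muscle myosin, at 188 and 116 FPKM. Higher members included GSN, the actin-severing gelsolin, at 11.1 and 25.9 FPKM and TMSB4X, which holds actin monomers, at 782 and 1295 FPKM.

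Targets of the YAP and TAZ coactivators, which respond to cell shape and density, had a median of -0.50, with 20 of 29 lower. CTGF was at 5.6 and 1.45 FPKM, CYR61 at 209 and 91.0 FPKM, and the receptor kinase AXL at 210 and 94.5 FPKM. YAP1 was at 50.5 and 53.9 FPKM and WWTR1, which encodes TAZ, at 28.3 and 28.7 FPKM. The targets were thus lower while both coactivators were at nearly equal levels in the 2 libraries. AP-1 genes were mixed: FOSL1 was at 459 and 169 FPKM, JUNB at 95.2 and 120 FPKM and FOS at 8.00 and 11.2 FPKM. LAMA3, a laminin chain of epithelial basement membranes, was at 19.5 and 7.15 FPKM, EPHA2, an ephrin receptor, at 101 and 46.1 FPKM, and HBEGF, an EGF receptor ligand, at 17.2 and 7.71 FPKM. Of 9 EGF family ligands and receptors, HBEGF among them, 5 were higher and 4 lower, with a median of 0.22. Of 18 feedback genes of the MAPK pathway, 4 were higher and 14 lower, with a median of -0.17. SPRY1, a feedback inhibitor of receptor kinases, was among the higher ones, at 8.28 and 30.2 FPKM.

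Protein quality control was lower as a group. All but 1 of 30 proteasome genes were lower, with a median of -0.40 and none by 2-fold, and PSMD1 was at 59.7 and 31.4 FPKM. Of 19 heat shock chaperones, 18 were lower, with a median of -0.50, HSP90AA1 at 374 and 178 FPKM and the small chaperone HSPB1 as the exception at 693 and 971 FPKM. Of 20 chaperones and sensors of the endoplasmic reticulum, 16 were lower, with HSPA5 (BiP) at 225 and 116 FPKM and ERN1, a stress sensor, at 0.904 and 1.98 FPKM. Nuclear transport genes were lower in 27 of 28 cases, with RANBP1 at 86.3 and 48.9 FPKM.

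Central carbon metabolism was divided. Of 21 glycolysis genes, 16 were lower, with a median of -0.37. LDHA, which makes lactate, was at 653 and 274 FPKM, ENO1 at 774 and 450 FPKM, and the glucose transporter SLC2A1 at 46.3 and 26.0 FPKM. Hypoxia targets outside glycolysis did not share the direction: 13 of 20 were higher, with CA9, a carbonic anhydrase, at 115 and 270 FPKM and ADM, adrenomedullin, at 18.6 and 43.4 FPKM. The nuclear genes of oxidative phosphorylation had a median of 0.01, with 28 of 49 higher. In a fatty acid oxidation list put together after the values were seen, 19 of 22 were higher, with ACADS, a short-chain acyl-CoA dehydrogenase, at 3.86 and 12.3 FPKM, CRAT, carnitine acetyltransferase, at 12.2 and 30.1 FPKM, and PDK4, which restrains pyruvate oxidation, at 3.84 and 11 FPKM. DEPTOR, an inhibitor of mTOR kinase, was at 2.24 and 8.10 FPKM, and PINK1, a kinase of mitochondrial quality control, at 25.6 and 82.8 FPKM.

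Epithelial defence genes were the fixed list with the highest median. Of 19 measured genes for acute phase proteins, complement and mucosal defence, 17 were higher and 2 lower, with a median log2 ratio of 1.09. Of these 19, 11 were at least 2-fold higher, beside 3.09% of all members. SLPI, a secreted protease inhibitor, was at 37.7 and 122 FPKM, C3, the central complement component, at 83.5 and 238 FPKM, and S100A9, a calprotectin subunit, at 102 and 327 FPKM. CD59 and DMBT1 were the 2 lower members, at 53.5 and 34.3 FPKM and at 14.7 and 11 FPKM. The median of the list was 0.68 in Panc.8, 0.13 in HPAF-II and -1.17 in Panc.05.04. Among 30 genes of NF-kB signalling and its cytokines, 21 were higher and 9 lower, with 7 at least 2-fold higher. CCL2, a monocyte chemokine, was at 75.3 and 258 FPKM, CXCL8 at 1.63 and 7.53 FPKM and BIRC3 at 16.1 and 39.2 FPKM, while the early inhibitor TNFAIP3 was at 4.79 and 3.62 FPKM.

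**Figure D3:**
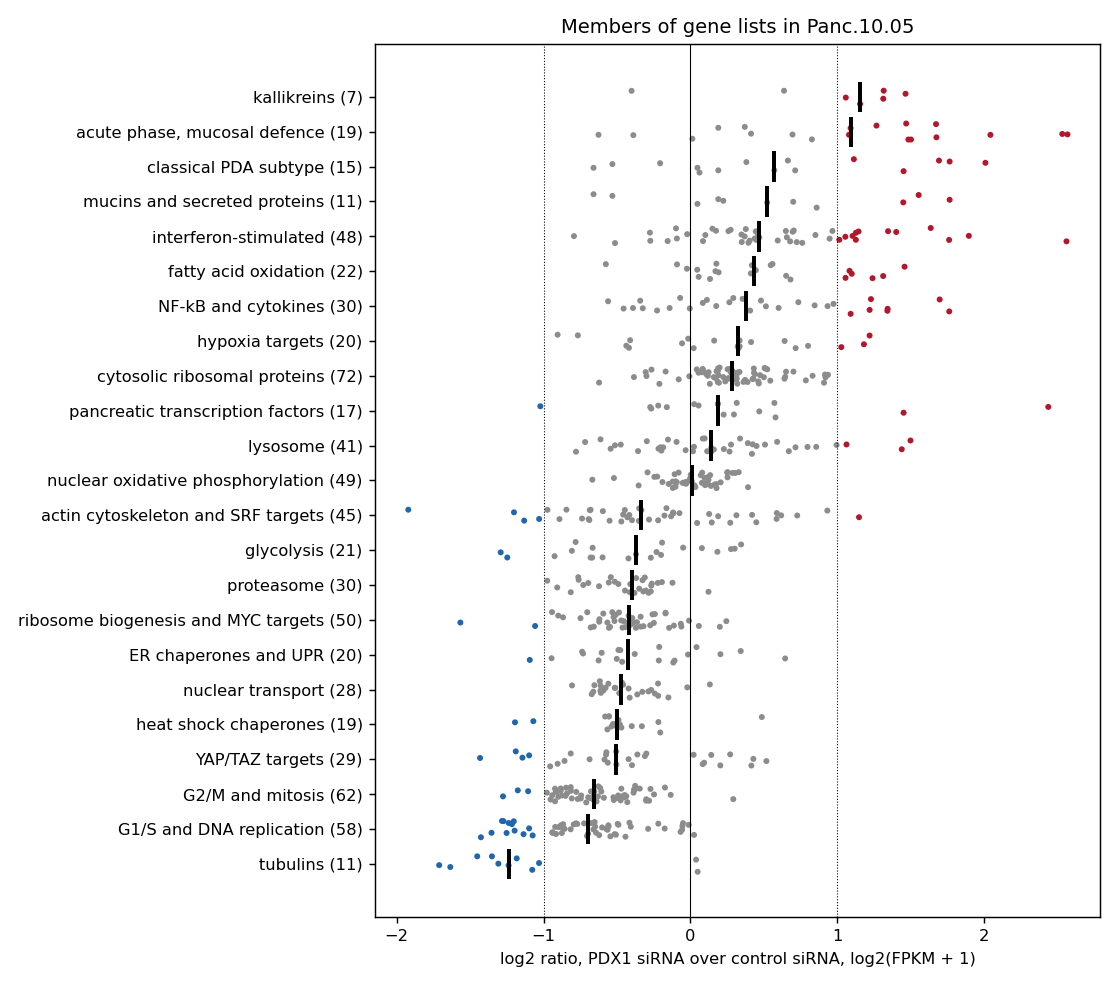
Each point is a gene of a list with at least 1 FPKM in either Panc.10.05 library, placed by its log2 ratio of PDX1 siRNA over control siRNA, with the number of genes in brackets and a black bar at the median. Red and blue points are at least 2-fold higher or lower. Tubulins have the lowest median, at -1.24, and the acute phase and mucosal defence genes reach 1.09. Kallikreins and fatty acid oxidation were listed after the values were seen.

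Interferon-stimulated genes were higher in part. Of 48 such genes, 40 were higher and 8 lower, and the median was 0.46. At least 2-fold higher were 12 of them, beside 3.09% of all members. IFITM1, a membrane protein that limits virus entry, was at 229 and 855 FPKM, 3.73-fold higher, IFI6 was at 178 and 471 FPKM and MX1, an antiviral GTPase, at 25.8 and 58.3 FPKM. ISG15, a ubiquitin-like modifier, was at 244 and 171 FPKM, IFIT3 at 172 and 154 FPKM, and DDX58, which encodes the RNA sensor RIG-I, at 23.2 and 24.7 FPKM. The list was thus split between members such as IFITM1 and members such as ISG15. In Panc.8 it had a median of 2.39, with ISG15 at a log2 ratio of 2.95 and IFITM1 at 2.83. In HPAF-II the median was 0.28 and in Panc.05.04 it was -0.25. TMEM173 (STING), a sensor of cyclic dinucleotides, was at 53.4 and 126 FPKM in Panc.10.05. Of the 6 measured antigen presentation genes, 4 were higher and 2 lower, with PSMB10, an immunoproteasome subunit, at 35.6 and 120 FPKM, CD74, the invariant chain, at 182 and 390 FPKM, and ERAP1, a peptide-trimming protease, at 14.2 and 12.8 FPKM. HLA-C is divided over several rows, and the sums over those rows were 229 and 342 FPKM, with B2M, the light chain of MHC class I, at 398 and 649 FPKM.

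The promoters of IFITM1 and ISG15 are shown together because the 2 genes carry the same kind of letters and had opposite directions in Panc.10.05. Capitals mark GAAA, any 2 bases and GAAA again, the core of the interferon-stimulated response element (ISRE). IFITM1 lies at chr11:313790-314089 and ISG15 at chr1:1013247-1013546, both on the plus strand of GRCh38.p14 in RefSeq.
IFITM1: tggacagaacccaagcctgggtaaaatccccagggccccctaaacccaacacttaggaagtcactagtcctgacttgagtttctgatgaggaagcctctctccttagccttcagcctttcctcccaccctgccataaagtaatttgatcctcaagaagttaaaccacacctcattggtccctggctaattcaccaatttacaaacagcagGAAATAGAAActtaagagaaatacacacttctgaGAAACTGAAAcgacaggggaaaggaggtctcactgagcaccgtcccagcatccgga
ISG15: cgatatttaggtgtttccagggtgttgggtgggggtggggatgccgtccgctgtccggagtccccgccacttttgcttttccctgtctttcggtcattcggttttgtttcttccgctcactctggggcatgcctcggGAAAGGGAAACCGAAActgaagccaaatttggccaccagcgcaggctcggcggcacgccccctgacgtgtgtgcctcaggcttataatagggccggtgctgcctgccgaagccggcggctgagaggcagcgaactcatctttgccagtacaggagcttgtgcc
Each window holds 2 matches, which overlap each other in ISG15. On either strand the letters were in 2.68% of the 5935 entries and in 21 of the 29 entries of the list, which is 72.4%. Within the list the median log2 ratio was 0.38 with the letters and 0.65 without.

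Markers of differentiated gland cells that reached 1 FPKM were higher more often than lower, and pancreatic transcription factors were mixed. Of 34 genes with a row that mark the classical PDA subtype, 15 reached 1 FPKM and 12 were listed at 0 in both libraries. Of the 15 that reached it, 12 were higher and 3 lower, with a median of 0.57. Among them 5 were at least 2-fold higher, beside 3.09% of all members. AGR2, a secretory pathway disulfide isomerase, was at 0.982 and 5.74 FPKM, and PRR15L was at 1.97 and 11 FPKM. CTSE and CEACAM6 were lower, at 1.60 and 0.646 FPKM and at 55.6 and 38.2 FPKM. AGR2 thus reached 1 FPKM only with PDX1 siRNA, and CTSE only with control siRNA. The 24 genes of the basal-like subtype divided into 11 higher and 13 lower, with LEMD1 at a log2 ratio of 2.94, S100A10 at 571 and 210 FPKM and a median of -0.06. Of 31 mucin and secreted protein genes with a row, 11 reached 1 FPKM and 10 were listed at 0 in both libraries. Among the 11, 9 were higher, with MUC1 at 227 and 413 FPKM and CEACAM1 at 5.34 and 17.6 FPKM. Of 7 kallikreins, secreted serine proteases listed after the values were seen, 6 were higher, with KLK8 at 29.3 and 82.7 FPKM.

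Of the 30 pancreatic transcription factors with a row, 17 were members, and 12 of those were higher and 5 lower, with a median of 0.19. SOX2 and ELF3, an epithelial ETS factor at 93.1 and 256 FPKM, were at least 2-fold higher. ONECUT2 was 2.58-fold lower, at 4.83 and 1.87 FPKM. GATA6, an endoderm factor, at 3.74 and 6.04 FPKM, and EHF, an epithelial ETS factor, at 84.2 and 117 FPKM, were higher by less than 2-fold. HES1, HNF4G, FOXA1, MEIS1 and MEIS2 were also higher, with log2 ratios between 0.19 and 0.32. The factors SOX9, at 46.8 and 41.8 FPKM, KLF4, at 45.1 and 38.6 FPKM, MNX1, at 4.38 and 3.48 FPKM, and FOXA2, at 2.30 and 1.73 FPKM, were lower. RBPJ and KLF5 had log2 ratios of 0.06 and 0.03. PTF1A, NKX2-2, SOX17 and CDX2 were listed at 0 in both libraries, and PDX1, NKX6-1, GATA4, FOXA3, HNF4A, ONECUT1, NR5A2 and PROX1 stayed below 1 FPKM. Factors under that limit were outside the comparison.

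Genes that cells use when growth signals fade, a list put together after the values were seen, were mostly higher. Of 15 such FOXO-related genes, 11 were higher, with PIK3IP1, an inhibitor of PI3 kinase, at 4.34 and 9.98 FPKM, and KLF9 at 0.790 and 2.72 FPKM, while CITED2, a coregulator, was at 32.2 and 12.1 FPKM. Of 19 circadian clock genes, also listed after their values were seen, 15 were higher, with the clock output factor DBP at 17.4 and 45.2 FPKM and TEF, its relative, at 10.7 and 20.2 FPKM. NOCT, a clock-controlled phosphatase, was lower, at 4.16 and 1.05 FPKM. Apoptosis regulators divided, with 20 of 34 higher: the death ligand TNFSF10 (TRAIL) was at 7.82 and 32.1 FPKM and the death receptor FAS at 14.4 and 29.9 FPKM, while the survival gene BCL2L1 was at 222 and 118 FPKM. Among lysosome genes 26 of 41 were higher, with a median of 0.14, and the cathepsins CTSS, at 11.9 and 35.4 FPKM, and CTSH, at 26.6 and 73.7 FPKM, were more than 2-fold higher. Of 32 epithelial junction genes, 19 were higher and 13 lower, with a median of 0.15. CLDN3 was at 93.4 and 207 FPKM and CLDN7 at 191 and 335 FPKM. The desmosome genes DSP, at 33.5 and 19.0 FPKM, and PKP2, at 42.4 and 24.1 FPKM, were lower. The 13 mesenchymal genes divided into 6 higher and 7 lower, with a median of -0.08 and MMP7 as the highest. Among the lower ones was SNAI2, a repressor of epithelial genes, at 5.40 and 1.71 FPKM.

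The rows that were 2-fold apart in Panc.10.05 were then looked up in the other lines. Of the 359 higher rows, 262 reached 1 FPKM in Panc.8 and 69.8% of those were higher there, against 47.8% of all members measured in Panc.8. In HPAF-II the share was 53.2% against 54.9% of all, and in Panc.05.04 it was 29.4% against 58.3%. Of the 199 lower rows, 36.3% were higher in Panc.8, against the same 47.8% of all, 46.1% in HPAF-II, against 54.9%, and 63.4% in Panc.05.04, against 58.3%. The shares in Panc.8 were above its background for the higher rows and below it for the lower rows, and those in Panc.05.04 were the other way round. In HPAF-II both shares were below the background. These differences between shares were not tested. Across genes, the log2 ratios of Panc.10.05 had a Pearson correlation of 0.186 with those of Panc.8 over 10686 rows, of 0.0471 with HPAF-II over 10639 rows and of -0.166 with Panc.05.04 over 10523 rows. Genes are not independent replicates, and each line contributed 1 ratio per gene.

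**Figure D4:**
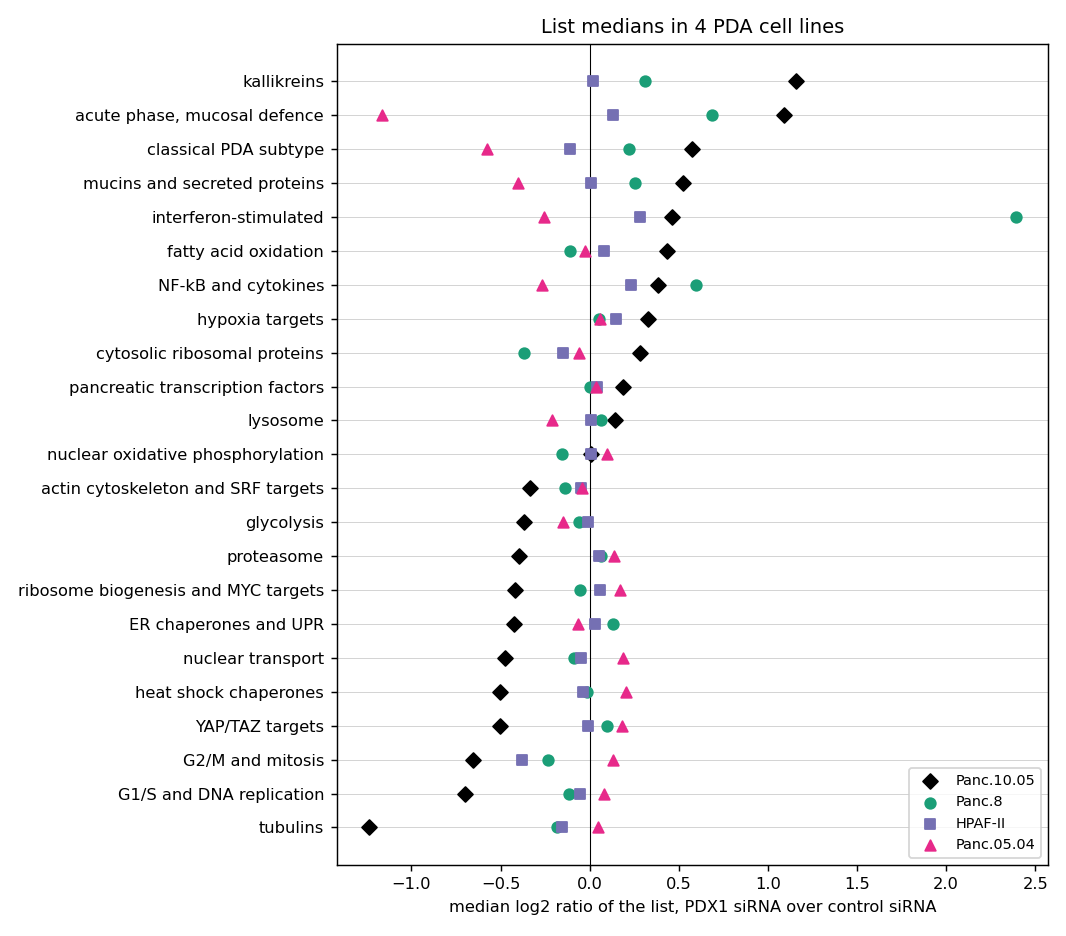
Median log2 ratio of PDX1 siRNA over control siRNA for the members of each list with at least 1 FPKM in the line, in Panc.10.05 (diamonds), Panc.8 (circles), HPAF-II (squares) and Panc.05.04 (triangles). Ribosomal protein genes are above 0 only in Panc.10.05, at 0.28, and interferon-stimulated genes are highest in Panc.8, at 2.39. Kallikreins have no value in Panc.05.04.

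Whether the ratio of a gene in Panc.10.05 lay outside the spread of the other 3 lines was tested with limma, with all 4 within-line ratios in 1 fit and the lone Panc.10.05 ratio assumed to vary like the others. Of 9629 rows with a mean of at least 1 FPKM in each line, 108 had a higher ratio in Panc.10.05 at an adjusted p under 0.05, which is 1.12%, and 119 a lower one, which is 1.24%. The smallest limma adjusted p was 0.0366, with 2 residual degrees of freedom. HPAF-II had the tightest ratios of the 4 lines, and without HPAF-II the limma fit called 0 genes in either direction. With that line left out, 1 residual degree of freedom remained instead of 2, and why the calls were lost was not tested. When each line's ratios were scaled to the same SD, an alternative chosen after seeing the data, limma also called 0 genes, with 391 higher and 517 lower at an unadjusted p under 0.05. With a filter on the mean over all 8 libraries instead of within each line, 5 higher and 4 lower genes were called.

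ASS1 had the largest difference. Its log2 ratio was 3.06 in Panc.10.05, 0.52 in Panc.8, -0.24 in HPAF-II and -0.79 in Panc.05.04, a difference of 3.23 ± 0.46 (SE) with a limma adjusted p of 0.0429. CHPF2 differed by 3.03 ± 0.19 (SE), and its other ratios all lay between -0.22 and 0.17. Unlike ASS1, CHPF2 did not pass the q threshold for Panc.10.05 in the authors' deposited table. CD14 differed by 2.24 ± 0.29 (SE) at a limma adjusted p of 0.0408. The other 9 of the 12 genes with the largest higher differences ranged from 1.67 for SGK1, a serum- and glucocorticoid-regulated kinase, to 1.98 for ANXA6, a calcium-dependent membrane-binding annexin. They included SIPA1, MACROD1, SELM, H6PD, CRIP2, the small nucleolar RNA SNORD3A and the snoRNA host EPB41L4A-AS1. On the lower side UPP1 differed by -2.22 ± 0.19 (SE), with a limma adjusted p of 0.0366, and KLF2 by -2.0 ± 0.33 (SE), with a limma adjusted p of 0.0497. JUN, with ratios of 0.11, 0.41 and 0.29 in Panc.8, HPAF-II and Panc.05.04, differed by -1.79 ± 0.17 (SE). FLNA, TUBB2A, MYBL1, PRKCDBP, FRMD6, GDAP1, NOCT and the transcript MGC72080 were also among the 12 genes with the largest lower differences.

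**Figure D5:**
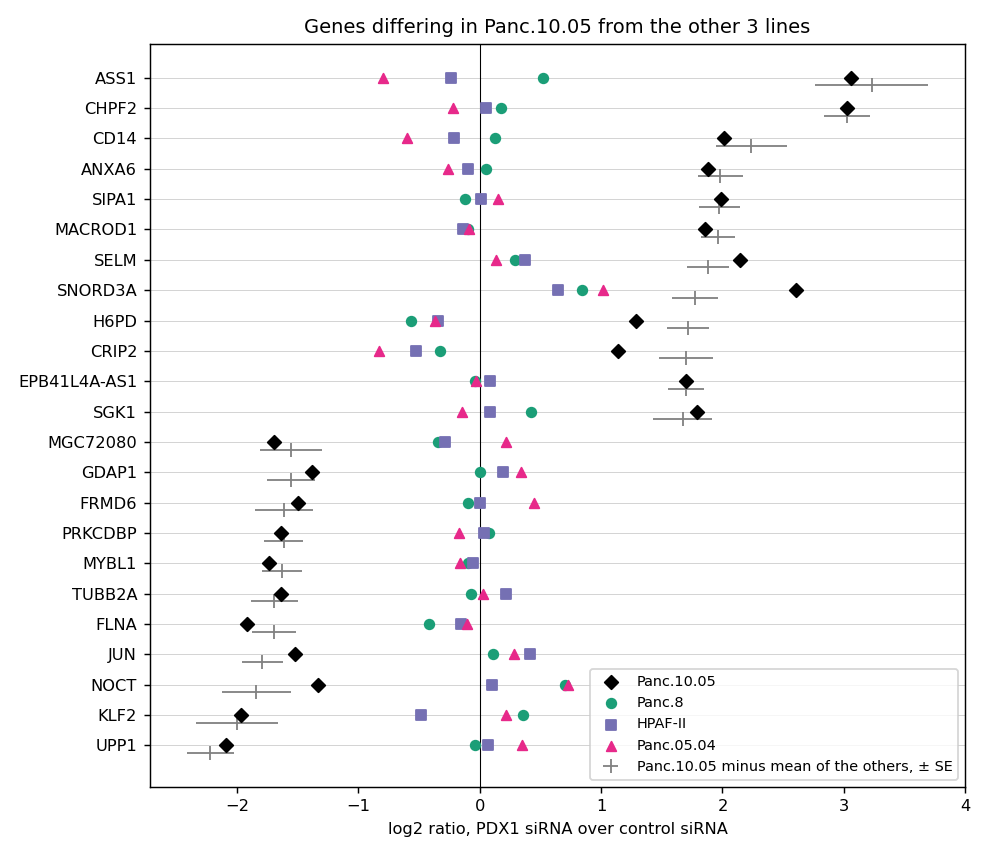
The horizontal axis gives the log2 ratio (PDX1 siRNA against control) in Panc.10.05 (diamonds) and the other 3 lines, for 12 genes with the largest higher differences and 11 of the 12 with the largest lower ones past a limma adjusted p of 0.05. Grey bars give the difference of Panc.10.05 from the mean of the others with its SE, 3.23 ± 0.46 for ASS1 and -2.22 ± 0.19 for UPP1.

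Among the gene groups, replication genes and tubulins held the most calls on the lower side. Of 58 replication genes tested, 10 were called lower and 0 higher, beside 1.24% of all rows called lower. HELLS differed by -1.40 ± 0.15 (SE) at a limma adjusted p of 0.0408 and MCM4 by -1.23 ± 0.17 (SE) at 0.0408, also by limma. The G2/M list had 0 calls among 62 genes tested, although its median ratio in Panc.10.05 was near that of the replication genes, and HPAF-II and Panc.8 had lower medians for it too. Of 10 tubulins tested, 5 were called lower, TUBB3 with -1.46 ± 0.14 (SE) and a limma adjusted p of 0.0366 among them. SRM and NOP2 were the called members among 50 ribosome biogenesis genes tested, and PKM and LDHA those among 20 glycolysis genes. PSMC3 and PSMD1 were those among 30 proteasome genes, and HSPA5 and SDF2L1 those among 20 genes of the endoplasmic reticulum list. Of the 26 YAP and TAZ targets tested, THBS1, AXL and CYR61 were called lower. Higher calls included RPL13A among 70 ribosomal proteins tested, a share near that of all rows called higher. EIF4A2, with 1.58 ± 0.15 (SE), was called among 32 translation factors, and GAS5 and EPB41L4A-AS1 among 12 snoRNA hosts. TCF7 and SOX4 were called among 5 Wnt genes, PSMB10 among 3 antigen presentation genes, and PINK1 and PIK3IP1 among 11 growth-factor withdrawal genes. CD46, which shields cells from complement, was called among 8 defence genes. Such single calls do not describe a whole list. None of the 42 interferon-stimulated genes tested was called by limma, and the ratios of the 3 reference lines for that list were themselves far apart.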

How the data were processed

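RNA-seq libraries of total RNA from 4 PDA cell lines were used, 1 per line and treatment, grouped by sample title. The submitters' processing notes name genome build hg38 and the programs Cuffdiff, Cufflinks and TopHat2 (version 2). The sources used here do not state tool settings, annotation, strandedness, read totals or whether tables were scaled together, so depth is unknown and no counting interval is given. Per the file headers, the authors deposited FPKM for both libraries of a line with Cuffdiff p-values and q-values, which compare 2 libraries. A count test does not suit FPKM, and limma on the log scale was taken instead. Antisense and overlapping genes may share reads.

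Log2 ratios were taken with a pseudocount of 1 FPKM in Python 3.11.15 (pandas 2.3.3, numpy 2.4.6). Limma 3.58.1 in R 4.3.3 fitted the 4 within-line ratios with a term for Panc.10.05 and eBayes with trend, with Benjamini-Hochberg adjustment. P-values rest on the spread among the other 3 lines. On simulated data it recovered 17% of log2 changes of 1 and 61% of those of 2, with 1 false call, over 9629 genes. All simulated lines shared the same spread per gene, whereas in the data Panc.10.05 had the widest ratios. The simulation therefore cannot show how many false calls the data hold. The members and gene lists were chosen with earlier results of these data known, and 9 of the 62 lists after their values were seen. Named genes were PDX1, the pancreatic transcription factors, the 20 highest and 20 lowest coding genes from 5 FPKM, the 8 largest FPKM differences and 12 limma calls per direction, and up to 4 members with the largest ratios per list with 2 against its median; further list members were named after their values were seen. Lists hold rows of 1 symbol only. Alternatives were other pseudocounts, filters, scalings and left-out lines. Promoters are from RefSeq. Results on a few genes are not reported here.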

Additional observations from a re-analysis of the deposited data

Results flagged for a closer look

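The Panc.10.05 ratio differed from the mean of the other 3 lines for 108 genes on the higher side and 119 on the lower side by limma at an adjusted p under 0.05, and these counts drop to 0 without HPAF-II. Among the genes named for the size of that log2 difference, ASS1 had 3.23, CHPF2 3.03, CD14 2.24, ANXA6 1.98, SIPA1 1.97, MACROD1 1.96, SELM 1.88, SNORD3A 1.77, H6PD 1.72, CRIP2 1.70, EPB41L4A-AS1 1.70 and SGK1 1.67. On the lower side UPP1 had -2.22, KLF2 -2.0, NOCT -1.84, JUN -1.79, FLNA -1.70, TUBB2A -1.69, MYBL1 -1.63, PRKCDBP -1.62, FRMD6 -1.61, GDAP1 -1.56 and MGC72080 -1.56. Each was picked out because the test of the difference between lines passed the threshold.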

How the results depend on the processing

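Counts of 2-fold rows moved with the pseudocount, to 638 higher and 329 lower at 0.1 FPKM and to 117 and 88 at 5 FPKM, and stayed within 1.5 times under the other filters and scalings tried. Limma calls moved more: 525 higher and 671 lower without Panc.8, 0 and 0 without HPAF-II, 78 lower without Panc.05.04, 72 lower with a pseudocount of 0.1 FPKM, 67 lower with ratios centred in each line, 5 and 4 with the filter on the mean over 8 libraries, and 0 and 0 with ratios scaled to the same SD. The cause was not tested. Of the 227 called genes, 129 were also called without Panc.05.04 and 143 with a filter of 5 FPKM. Most genes called with the filter on the mean over 8 libraries were not among those called by the main fit. For list medians, 220 alternative values stayed within the set tolerance of 0.1 and 21 moved further. Sign changes were counted as reversals only for medians of at least 0.25 in size: that was 1, the fibroblast markers with a filter of 5 FPKM, at -0.078 for the 1 gene left. Smaller medians that changed sign with that filter were those of EGF family genes, from 0.22 to -0.11, replication-dependent histones, from -0.14 to 0.19, and mesenchymal genes, from -0.08 to 0.05. The ATF4 and TGF-beta lists, within 0.02 of 0, also changed sign under other scalings. Named limma genes kept their direction in each alternative, and 120 values stayed past the threshold while 76 missed it. The limma fit already pairs the control and PDX1 siRNA libraries of each line, and the labels give no replicate numbers for a further block.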
